A study of Mus musculus with 2 samples.

Results

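The BCL2 family genes that set the balance of survival and death were examined through 10 members, chosen by name and by their class: the anti-apoptotic genes Bcl2, Bcl2l1 and Mcl1, the effectors Bax and Bak1, and the BH3-only genes Bbc3, Pmaip1, Bcl2l11, Bid and Bad. They are 10 of the 43346 gene rows, found in both libraries through their GENCODE identifiers. Poly(A) RNA had been sequenced as read pairs in G1E-ER4, an immortalized mouse erythroid line without functional Gata1 of its own that carries GATA1 joined to the ligand-binding part of the estrogen receptor. All cells had received 10 nM 17beta-estradiol for 30 h, which activates the fusion protein and starts erythroid maturation. The 2 libraries are biological replicates 1 and 2 of this 1 group. Untreated cells were not analysed here, so the data give levels in the treated state and no effect of estradiol. The labels do not say whether the replicates came from separate cultures, so the spread between them may be technical.

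Cells commit to mitochondrial apoptosis when BAX or BAK perforates the outer mitochondrial membrane and releases cytochrome c. Anti-apoptotic members hold the effectors and the BH3-only proteins in a surface groove, and BH3-only proteins dock into that groove through the BH3 helix from which they take their name. In red cell precursors BCL-XL, the product of Bcl2l1, is a known survival factor downstream of erythropoietin and GATA1, and MCL1 is needed at earlier stages.

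The BH3 helix is the feature that all of these proteins share, so its coding bases are shown for all members other than Pmaip1. Each line gives 30 bases, 10 codons, of the mm10 coding strand, read from GENCODE M21 transcripts, with the codons of the leucine and the aspartate in capitals.
Bcl2: accCTCcgccgggctgggGATgacttctct
Bcl2l1: gcgCTGagagaggcaggcGATgagtttgaa
Mcl1: accCTGcggcgcgtgggcGACggcgtgcag
Bax: tgtCTCcggcgaattggaGATgaactggac
Bak1: cagCTTgctctcatcggaGATgatattaac
Bbc3: cagCTGcggcggatggcgGACgacctcaac
Bcl2l11: gagCTGcggcggatcggaGACgagttcaac
Bid: catCTCgcccaaataggcGATgagatggac
Bad: gagCTCcgaaggatgagcGATgagtttgag
The motif was found as a leucine codon, 3 codons of any kind, then glycine, alanine or serine, then aspartate, then aspartate, glutamate, glycine or lysine. Leucine and aspartate, which the search itself fixed, are the 2 of 10 codon positions that encode the same residue in all 9 genes. The windows lie at chr1:106712575-106712604 for Bcl2, chr2:152829697-152829726 for Bcl2l1, chr17:27022531-27022560 for Bak1, chr7:45465997-45466026 for Bax and chr6:120897289-120897318 for Bid, all on the minus strand. On the plus strand they lie at chr3:95659433-95659462 for Mcl1, chr7:16313770-16313799 for Bbc3, chr2:128147147-128147176 for Bcl2l11 and chr19:6950789-6950818 for Bad.

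The gene rows held 73681318 expected counts, the estimated numbers of fragments per gene, in replicate 1 and 56056404 in replicate 2. Levels are in TPM, a unit with the same total in every library, which divides counts by effective transcript length and so allows different genes to be set side by side. All 10 erythroid markers examined reached 1 TPM in both libraries, while 0 of 8 myeloid, 0 of 4 mast cell, 0 of 5 lymphoid, 0 of 3 fibroblast and 0 of 3 endothelial markers and 2 of 5 megakaryocyte markers did. The myeloid markers summed to 0.32 TPM in replicate 1 and 10.8 in replicate 2, nearly all of it Mpo, Prtn3 and Elane. These are bulk libraries, in which fewer cells of a type and less RNA per cell cannot be told apart.

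Of the 10 members, 8 reached 1 TPM in both libraries, and Bcl2 and Pmaip1 did not. Over all 21474 protein-coding genes the share that did was 35.3%. By mean TPM the order was Mcl1, Bbc3, Bcl2l1, Bax, Bak1, Bad, Bcl2l11, Bid, Bcl2 and Pmaip1. The libraries overlapped between the neighbours Mcl1 and Bbc3, and between Bcl2l1 and Bax, so these neighbours were not separated. The ranges of the other neighbours did not overlap.

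**Figure D1:**
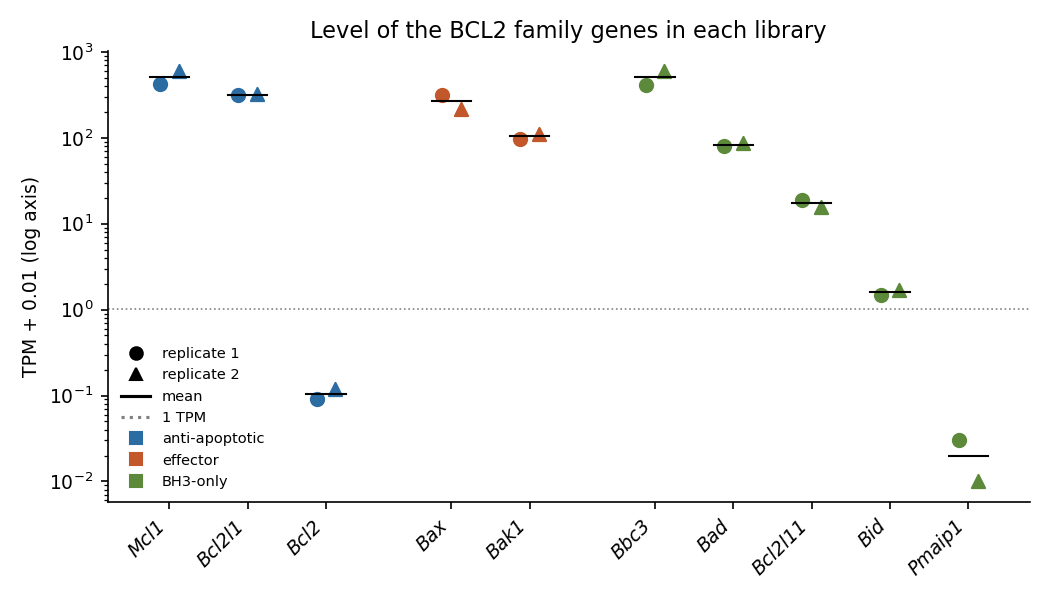
Level of the 10 genes by class, as TPM + 0.01 on a log axis; circles are replicate 1, triangles replicate 2, bars the mean and the dotted line 1 TPM. In each class 1 or more genes lie above 100 TPM, while Bcl2 and Pmaip1 lie below 1 TPM in both libraries.

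Mcl1 and Bcl2l1 made up nearly all of the anti-apoptotic message, and Bcl2 was well below 1 TPM. Mcl1 (ENSMUSG00000038612.12, chr3:95658788-95663176, plus strand), which encodes a short-lived protein that binds BIM, PUMA, NOXA and BAK, had 427 TPM in replicate 1 and 594 in replicate 2, or 511 ± 118 TPM (SD, n = 2). Bcl2l1 (ENSMUSG00000007659.14, chr2:152780668-152831728, minus strand) had 316 and 321 TPM, or 319 ± 3.63 TPM (SD, n = 2). Bcl2l1 was nearly equal in the libraries, whereas Mcl1 was higher in replicate 2, and Mcl1 lay above Bcl2l1 in both. Bcl2 (ENSMUSG00000057329.7, chr1:106538178-106714274, minus strand), the founding member of the family, had 0.08 and 0.11 TPM from 33 counts in each library. The exact 95% interval of that count is 22.7 to 46.3, for counting error alone. Bcl2l1 exceeded Bcl2 by 8.20 in replicate 1 and 8.18 in replicate 2 on the log2(TPM + 1) scale, which understates ratios to low genes. Bcl2l1 minus Mcl1 on that scale was -0.43 and -0.89.

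Both effector genes were expressed, and Bax was above Bak1 in both libraries. Bax (ENSMUSG00000003873.10, chr7:45461697-45466898, minus strand), whose protein is largely cytosolic until it is activated, had 317 TPM in replicate 1 and 216 in replicate 2, or 266 ± 71.2 TPM (SD, n = 2). Bak1 (ENSMUSG00000057789.9, chr17:27019810-27029009, minus strand), whose protein sits in the outer mitochondrial membrane, had 97.8 and 111 TPM, or 105 ± 9.40 TPM (SD, n = 2). The 2 genes differed between the libraries in opposite directions. Their difference on the log2(TPM + 1) scale was therefore 1.68 in replicate 1 and 0.95 in replicate 2.

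Among the BH3-only genes Bbc3 held most of the message. Bbc3 (ENSMUSG00000002083.8, chr7:16308393-16318205, plus strand), which encodes PUMA, an inducer of apoptosis downstream of p53 and FOXO factors, had 414 TPM in replicate 1 and 596 in replicate 2, or 505 ± 129 TPM (SD, n = 2). Bad (ENSMUSG00000024959.9, chr19:6941861-6951899, plus strand), whose protein is held inactive by 14-3-3 proteins when phosphorylated, had 80.0 and 87.3 TPM. Bcl2l11 (ENSMUSG00000027381.12, chr2:128126038-128162547, plus strand), which encodes BIM, had 19.1 and 15.5 TPM. In deposited TPM, Bbc3 was thus the highest of the BH3-only genes by a wide margin in both libraries. It exceeded Bcl2l11 by 4.37 and 5.18 on the log2(TPM + 1) scale. Bid (ENSMUSG00000004446.8, chr6:120891930-120916853, minus strand), which links death receptors to mitochondria after cleavage by caspase-8, had 1.49 and 1.67 TPM from 221 and 194 counts. Pmaip1 (ENSMUSG00000024521.7, chr18:66458533-66465565, plus strand), which encodes NOXA, had 4 counts in replicate 1 and 0 in replicate 2, where the floor used for a count of 0, 3 counts, equals 0.0212 TPM. Bid was just above 1 TPM and Pmaip1 was at or near 0 in both libraries. Bid minus Bad was -5.02 and -5.05 on the log2(TPM + 1) scale, and Bbc3 minus Pmaip1 was 8.67 and 9.22.

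Among protein-coding genes ranked by TPM, Mcl1 and Bbc3 were each at percentile 98.8 in replicate 1 and 99.2 in replicate 2. Bcl2l1 was at 98.5 in both, and Bax at 98.5 and 97.8. Bak1 followed at 95.2 and 95.8, Bad at 94.2 and 94.7, Bcl2l11 at 84.1 and 82.7, and Bid at 65.5 and 67.0. The 4 leading genes, at least 1 from each class, therefore lay in the upper part of this ranking in both libraries.

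Summed by class, anti-apoptotic message was the most abundant in both libraries. It came to 743 TPM in replicate 1 and 916 in replicate 2, or 830 ± 122 TPM (SD, n = 2). BH3-only message came to 514 and 700 TPM, or 607 ± 131 TPM (SD, n = 2), and effector message to 414 and 327 TPM, or 371 ± 61.8 TPM (SD, n = 2). The order of the classes was the same in each library, although the effector and BH3-only sums lay closer together in replicate 1. Of the 1672 and 1943 TPM of all 10 genes, the anti-apoptotic class took 44.4% and 47.1%, the BH3-only class 30.8% and 36.0%, and the effectors 24.8% and 16.8%.

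**Figure D2:**
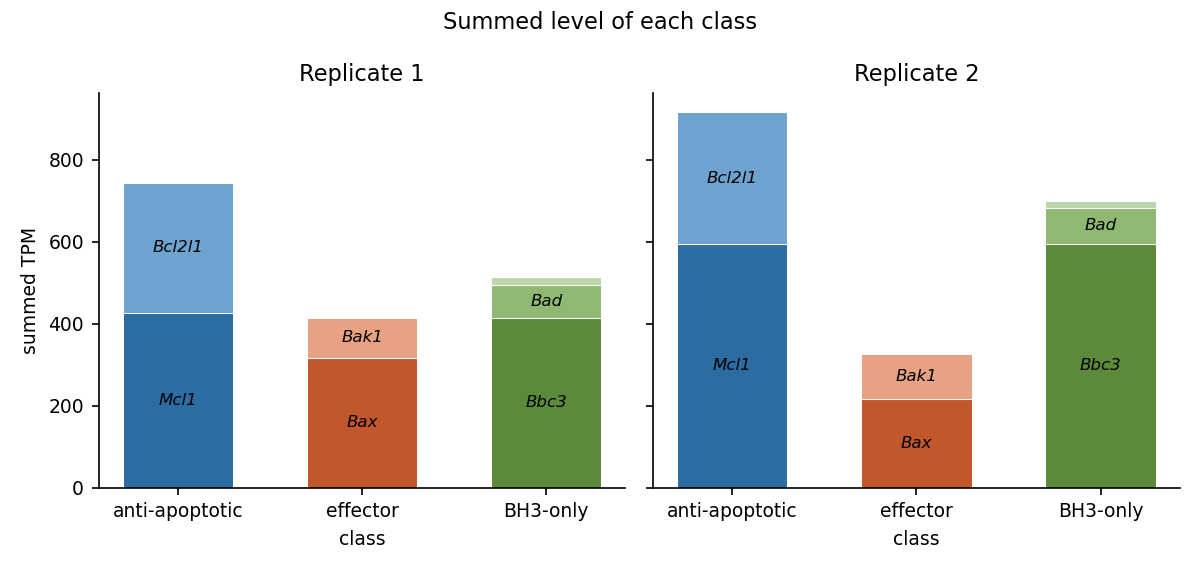
Summed TPM of each class in replicate 1 (left) and replicate 2 (right), with the genes of a class stacked. Mcl1 and Bcl2l1 fill the anti-apoptotic bar, Bbc3 most of the BH3-only bar, and the effector bar stands at 414 and 327 TPM.

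The balance was expressed as the log2 ratio of summed TPM within a library. Anti-apoptotic over BH3-only message was 0.53 in replicate 1 and 0.39 in replicate 2, or 0.46 ± 0.10 (SD, n = 2), which is 1.44-fold and 1.31-fold. Anti-apoptotic over effector message was 0.84 and 1.49, or 1.16 ± 0.455 (SD, n = 2), which is 1.79-fold and 2.80-fold. Anti-apoptotic message was the higher in both ratios and both libraries, and the ratios were not tested against equal levels. Each ratio rested on few genes: without Mcl1 the first became -0.91 and the second -0.21, and without Bbc3 the first became 3.01. With each gene counted equally, as the difference of class means of log2(TPM + 1), the first was 1.62 and the second -1.57. In these means Bcl2 weighs as much as Mcl1, and Pmaip1 and Bid as much as Bbc3. A sum of messages is not a sum of proteins, and none of the proteins was measured.

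The level of a gene with transcripts of different length depends on how the counts were divided among them, and this decided the order of the leading genes. The short Mcl1 model, of 858 bases, held 92.3% of Mcl1 TPM in replicate 1 and 91.7% in replicate 2, but 71.7% and 69.7% of its counts. The full Mcl1 model, of 3485 bases, held 7.69% and 8.26% of TPM and 28.3% and 30.3% of counts. Most of the Mcl1 TPM thus came from the short model. It has no annotated UTR, carries a tag for a non-canonical splice site and lacks 138 bases, or 46 codons, of the coding part of the full model (chr3:95658909-95659046). The joined bases of the short model and the unjoined bases of the full one are shown because this stretch separates the models; capitals mark the 15 bases after position 95658908.
Mcl1 short model: acctgtactgcggcgGCGCCGAGGACCCCG
Mcl1 full model: acctgtactgcggcgGCGCCAGCCTCGGCG
At the ends of the stretch 6 bases are repeated, so the letters do not fix where a join would lie.

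Bbc3 showed the same split. The short Bbc3 model, of 485 bases, held 68.1% and 73.5% of Bbc3 TPM but 30.0% and 34.7% of its counts. The long Bbc3 model, of 1814 bases, held 31.5% and 26.3% of TPM and 69.7% and 65.1% of counts. The short model starts from a first exon of its own (chr7:16310455-16310538) and stops before the end of the message. The BH3 motif lies in the long model and was not found in the annotated part of the short one. The long model alone had 130 TPM in replicate 1 and 157 in replicate 2, a smaller margin over Bad, at 80.0 and 87.3 TPM. If the transcripts without the motif are left out, anti-apoptotic over BH3-only message was 1.80 in place of 0.46 on the log2 scale, a setting added after the data were seen.

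Bcl2l1 and Bax did not depend on such a split. The leading Bcl2l1 model, of 2417 bases, held 95.3% and 97.9% of Bcl2l1 TPM, and it and a model of 2568 bases share the same 699 coding bases, those of the long, anti-apoptotic form. A model of 869 bases was the only one of Bax with values. With all counts of a gene divided by the effective length of its longest model with counts, also added after the data were seen, Mcl1 had 116 TPM in replicate 1 and 162 in replicate 2. Bcl2l1 had 294 and 299 TPM on that length, Bax 317 and 216 TPM, and Bbc3 187 and 241 TPM. Bcl2l11 moved most in proportion to its deposited level, to 3.84 and 3.53 TPM, and Bad had 40.5 and 45.8 TPM. Bcl2l1 was then the highest of the 10 by mean, with Bax overlapping it, and Mcl1 the fourth, and Bcl2l1 minus Mcl1 on the log2(TPM + 1) scale was 1.11 on average in place of -0.66. The log2 ratio of anti-apoptotic to effector message became 0.32 on average, with 0.045 in replicate 1 and 0.59 in replicate 2. That of anti-apoptotic to BH3-only message became 0.74 on average.

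**Figure D3:**
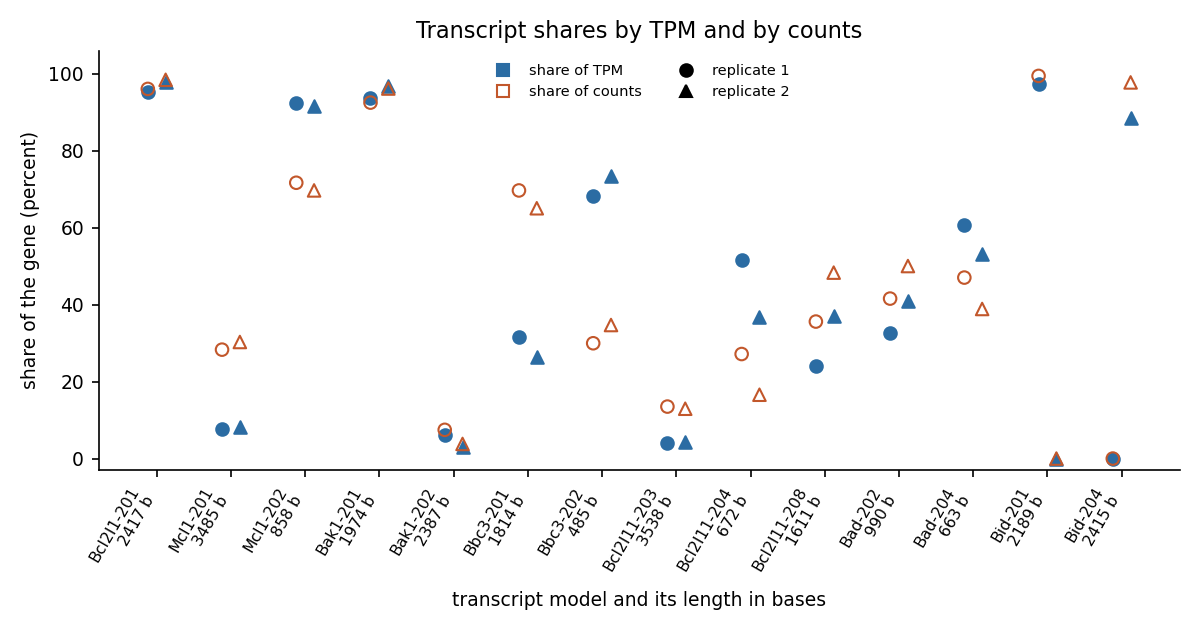
Share of each gene's TPM (filled) and counts (open) held by its main transcript models, with model length in bases; circles are replicate 1 and triangles replicate 2. The short models of Mcl1 (858 bases) and Bbc3 (485 bases) hold a larger share of TPM than of counts, and the Bid share passes from the 2189-base model in replicate 1 to the 2415-base model in replicate 2.

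GC content also moved with level across the transcriptome. Among protein-coding genes at 1 TPM or more, the median was 4.90 TPM in replicate 1 and 4.38 in replicate 2 below 40% GC, and 36.1 and 38.2 TPM at 60% GC or above. The members run from Pmaip1 at 41.6% and Bcl2 at 45.3% to Bax at 58.4%, Bad at 58.7% and Bbc3 at 68.6%, and Mcl1 and Bcl2l1 stand at 54.9% and 54.1%. Adjusting for this curve gave Mcl1 295 and 395 TPM, Bcl2l1 235 and 232 TPM, Bbc3 195 and 242 TPM, and Bax 166 and 103 TPM. Mcl1 was then still the highest, followed by Bcl2l1 and Bbc3, whose ranges overlapped, and Bax. The adjusted log2 ratios were 1.04 for anti-apoptotic over BH3-only and 1.63 for anti-apoptotic over effector message. How far the curve is technical was not tested.

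**Figure D4:**
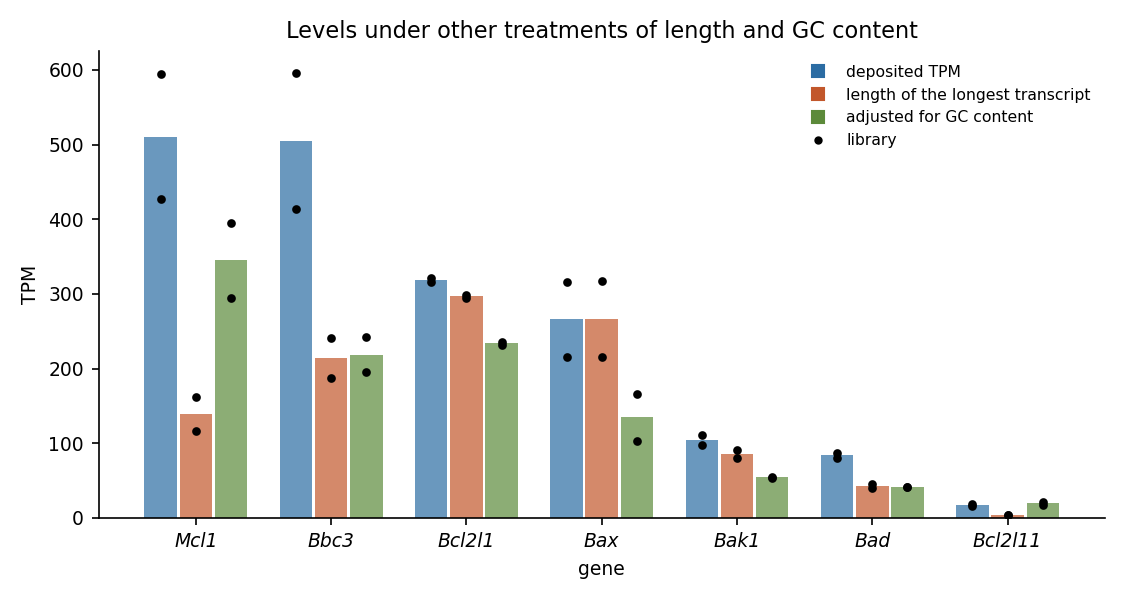
TPM of 7 genes as deposited, with the length of the longest transcript, and adjusted for GC content; bars are means and points the 2 libraries. Mcl1 and Bbc3 drop from means of 511 and 505 TPM when the longest length is used, while Bcl2l1 and Bax stay close to their deposited levels; the GC adjustment lowers all 4.

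The transcripts of Bak1, Bcl2l11, Bad and Bid differ in what they encode. The leading Bak1 model, of 1974 bases, held 93.8% of Bak1 TPM in replicate 1 and 96.8% in replicate 2, and a model of 2387 bases 6.17% and 3.11%. GENCODE M21 lists the leading model as a target of nonsense-mediated decay and the longer one as protein-coding; the leading model includes a 20-base exon (chr17:27021663-27021682), which is not a whole number of codons. Inclusion of a small Bak1 exon is known from neurons. The exon is shown in capitals with 5 bases on each side, above the same join without it, since it is 1 of the differences between the models.
Bak1 with the exon: tccagGCCAGCAGCAACATGCACAGcctat
Bak1 without it: caagatcgcctccagcctatttaagagtgg
The longer model also starts 431 bases further 5′, so counts may have been assigned by either difference, and these tables do not separate inclusion of the small exon from a later start. With a mean fragment length of 156 and 173 bases, the join without the exon would be crossed from 6.95% and 7.75% of the start positions in the longer model. On protein-coding transcripts alone Bak1 would have 6.03 and 3.46 TPM, and the log2 ratio of anti-apoptotic to effector message would be 1.63 on average.

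BIM is made in forms of different length, of which the shortest is known as the most potent killer. A model with 330 coding bases, the length of the short form BimS, held 51.6% of Bcl2l11 TPM in replicate 1 and 36.7% in replicate 2, but 27.2% and 16.6% of its counts. The model with 420 coding bases, the length of BimL, held 3.92% and 4.26% of TPM but 13.51% and 12.95% of counts. That with 588 coding bases, the length of BimEL, held 1.03% and 1.57% of TPM but 5.13% and 6.91% of counts. The other large shares belonged to models with no coding part, 1611 bases long at 24.01% and 37.2% of TPM, or 35.6% and 48.3% of counts, and 974 bases long at 17.7% and 19.9%. By TPM the BimS-length model was thus first in replicate 1 and the 1611-base model in replicate 2, whereas by counts the 1611-base model was first in both. The BimS-length model lacks an exon of 90 bases, or 30 codons (chr2:128128925-128129014), and the join is shown with the first 15 bases of the exon in capitals.
Bcl2l11 with the exon: agacagaaccgcaagACAGGAGCCCGGCAC
Bcl2l11 without it: agacagaaccgcaagcttccatacgacagt
Protein-coding Bcl2l11 models came to 11.1 TPM in replicate 1 and 6.67 in replicate 2.

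Bad was divided between a model of 663 bases without its true start, at 60.8% and 53.1% of TPM, and a model of 990 bases, at 32.7% and 41.0%. Both hold the BH3 motif. A protein-coding Bid model of 2189 bases held 97.4% of Bid TPM in replicate 1 and 0% in replicate 2, where a model of 2415 bases, listed as a target of nonsense-mediated decay, held 88.4%. These shares rest on 221 and 194 counts, and they were opposite in the libraries. The last exon of the latter (chr6:120891930-120892557) is 628 bases long and overlaps the opposite-strand gene Bcl2l13, which had 29172 and 23318 counts. Bad shares 524 exon bases with Gpr137 and Bak1 437 with Ggnbp1, both on the opposite strand, and Bax shares 192 with Gm45808, a model on its own strand that was not matched to a row. Whether counting used strand is not stated, so reads of these pairs cannot be told apart, and their part in the levels of Bid, Bad and Bak1 was not tested.

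The libraries were compared gene by gene with an exact two-sided binomial test on rounded counts at the ratio of TMM-scaled totals, with Benjamini-Hochberg adjustment over 10445 genes with at least 20 counts in sum. This test compares 2 libraries and not conditions, and it called 58.8% of all genes. Its p-values cover counting error only and treat estimated fragments as independent molecules, so they carry no spread between cultures or library preparations. Of the 9 members that could be tested, 6 were called, a share near that background, 5 of them higher in replicate 2 (29.9% of all genes) and 1 lower (29.0%). Mcl1 was higher in replicate 2 by 0.56 on the log2 scale, from 28806 counts in replicate 1 and 30727 in replicate 2, with an adjusted p too small to be written as a number. Bbc3 was higher by 0.43 (exact binomial test, adjusted p = 1.13e-220) and Bax lower, at -0.50 (exact binomial test, adjusted p = 9.71e-157). Bak1 and Bad were each 0.24 higher and Bcl2l1 0.10 higher (exact binomial test, adjusted p = 9.49e-39, 8.01e-12 and 4.76e-24). By contrast, Bcl2l11 at -0.05, Bid at 0.28 and Bcl2 at 0.46 were not called (adjusted p = 0.554, 0.0928 and 0.312 in the exact binomial test). None of the 9 reached a 1.5-fold difference, which 15.5% of all genes did. The median absolute log2 difference was 0.28 over the tested members and 0.24 over all genes tested. Mpo, Prtn3 and Elane differed in the same libraries, and their part in the member differences was not tested.

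**Figure D5:**
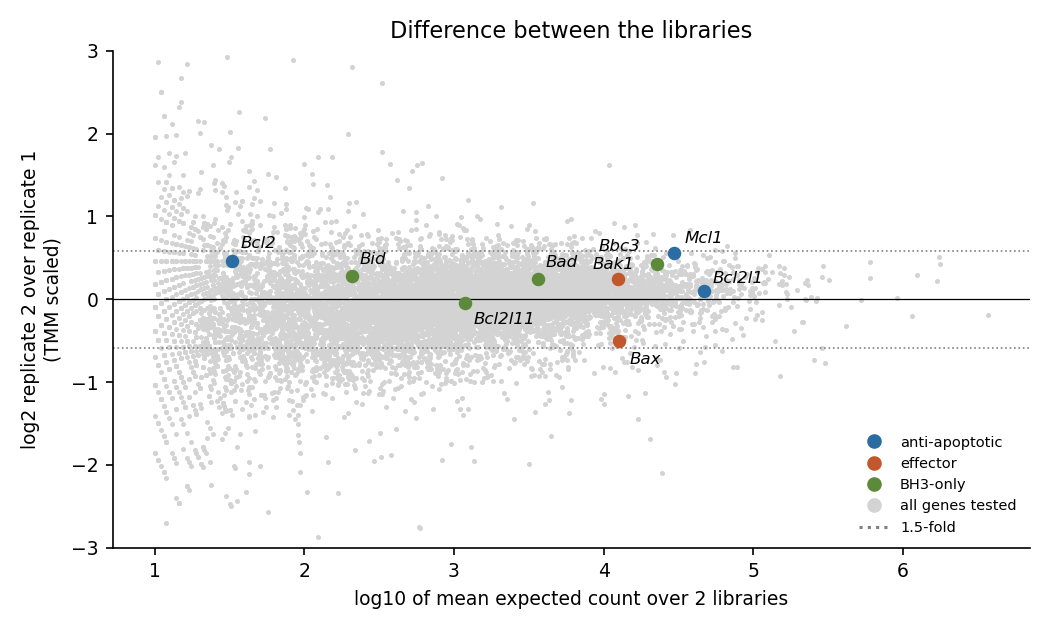
Difference between the libraries (log2 replicate 2 over replicate 1, TMM scaled) against mean expected count on a log10 axis; grey points are all genes tested, of which 39 lie outside the plotted range of 3 to either side, and dotted lines mark 1.5-fold. The 9 tested members lie inside the 1.5-fold lines, with Mcl1 nearest the upper and Bax nearest the lower one.

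Of 15 further family members 5 reached 1 TPM in both libraries. The highest was Bnip3, a mitochondrial protein induced by hypoxia, at 194 and 169 TPM, followed by Bcl2l13 at 57.7 and 60.3 TPM and Bnip3l, the receptor for mitochondrial clearance in maturing red cells, at 59.6 and 47.7 TPM. The anti-apoptotic gene Bcl2l2 had 28.7 and 29.3 TPM. Bcl2a1a, Bcl2a1b, Bcl2a1d, Bcl2l10, Bmf, Hrk and Bcl2l14 had 0 counts in both libraries, so neither the anti-apoptotic Bcl2a1 copies nor the BH3-only genes Bmf and Hrk were detected at this depth.

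Of 13 genes known to regulate transcription of the family, 9 reached 1 TPM in both libraries. Gata1, which acts on Bcl2l1 in erythroid cells, had 2036 TPM in replicate 1 and 1608 in replicate 2, and the table does not separate the introduced sequence from the endogenous gene. Foxo3, an activator of Bcl2l11 and Bbc3, had 294 and 259 TPM, Ddit3, the stress factor CHOP, 156 and 147 TPM, and Trp53, an activator of Bbc3, Bax and Pmaip1, 88.5 and 90.9 TPM. Stat5b had 63.2 TPM in replicate 1 and 70.1 in replicate 2, Stat5a had 3.89 and 4.38 TPM, and Trp63 had 0 counts in both libraries. Messages of Foxo3 and Trp53 were present beside Bbc3. On the same list, Foxo1 had 0.01 and 0 TPM and Trp73 had 0.21 and 0 TPM. Pmaip1, another known p53 target, had 4 and 0 counts. Whether these factors act on Bbc3 or Pmaip1 in these cells was not tested.

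Of 18 genes whose proteins control the members after translation, 15 reached 1 TPM in both libraries. Bag6 had 529 and 599 TPM, and the kinase gene Pim1, whose product phosphorylates BAD, had 497 and 527 TPM. The 14-3-3 gene Ywhae had 309 and 283 TPM, and Dynll1, a dynein light chain that binds BIM, 283 and 236 TPM. Of the genes that act on MCL1 stability, Huwe1, Usp9x and Fbxw7 had 20.7, 11.3 and 12.4 TPM in replicate 1 and 23.2, 12.1 and 12.8 TPM in replicate 2, whereas Trim17 had 0.38 and 1.47 TPM. Casp8, whose product cleaves BID, had 1 count in replicate 1 and 3 in replicate 2, the lowest of the 18. Bid itself, which is not on this list, had 1.49 and 1.67 TPM.

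Of 13 mitochondrial partners and downstream genes, 11 reached 1 TPM in both libraries. Vdac2, which encodes the outer-membrane channel that recruits BAK, had 166 and 133 TPM and was the highest, and Htra2 had 107 and 98.9 TPM. The apoptosome genes Apaf1 and Casp9 had 39.99 and 20.9 TPM in replicate 1 and 48.8 and 23.9 TPM in replicate 2. Cycs, which encodes cytochrome c, had 1.04 and 2.12 TPM from 229 and 162 counts. Its TPM was higher in replicate 2 from fewer counts, and how these were divided among its transcripts was not examined. In deposited TPM, the effectors Bax and Bak1 were far above Cycs in both libraries, a comparison that rests on this unexamined division.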

How the data were processed

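Poly(A) RNA of 2 libraries of 1 group was analysed. The authors deposited a gene and a transcript table for each, on mm10 with GENCODE M4 per the deposited description files; the sources used here do not name the aligner, the quantifier or how strand was handled. Per the file headers, the authors' expected counts are fragment numbers estimated per gene, with decimals. Their deposited TPM scales transcripts to the same total in each library, and their deposited FPKM scales fragments by length and depth. In percent, the authors also deposited the share of a gene's TPM held by each transcript. Shares of counts were computed here.

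Of the gene rows, 43346 were used, and 26345 rows named by a number or for spike-ins, with 9 counts, were left out. GENCODE M21 gave names, coordinates, transcript types and sequences for 42462 of them. Depth was 73681318 and 56056404 expected counts. Intervals are exact at 95% and floors are 3 counts, both for counting error only. The members and lists were chosen with earlier results of these data known. All 10 members are named, and of the lists the highest, mostly the lowest and genes that act on a member; the choice of the last was made after their values were seen. A gene of the downstream list is not reported here.

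Balance is the log2 ratio of summed TPM per class. Pairs are on log2(TPM + 1). Counts were rounded, scaled by TMM in edgeR 4.0.16 (R 4.3.3) and tested by the exact binomial test in scipy 1.17.1 at an adjusted threshold of 0.05, with a minimum of 20 counts in sum. GC adjustment divided TPM by a lowess curve (statsmodels 0.14.6, fraction 0.3) over protein-coding genes at 1 TPM or more. Alternatives were FPKM, posterior means, raw counts, GC adjustment, pseudocount, filters, member and transcript choice, each replicate left out, library totals and the size factors of DESeq2 1.42.0. After seeing the data, transcript length and BH3-motif transcripts were added. The binomial step was tested on simulated counts that held counting error only, so the outcome does not cover spread between libraries. It called 92.0% of genes at a true fold of 2 and 66.0% at 0.5. At 1.25 it called 71.4%, at 0.8 56.2% and at 1 0.0886%. Python 3.11.15, numpy 2.4.6, pandas 2.3.3 and Biopython 1.88 were used.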

Additional observations from a re-analysis of the deposited data

How the results depend on the processing

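On the log2 scale, anti-apoptotic over BH3-only message was 0.46, and it was 1.46 with raw counts, 1.04 with GC adjustment, 1.62 and 1.57 with class means of log2(TPM + 1) and log2(TPM + 0.1), -0.91 without Mcl1, 3.01 without Bbc3, 0.74 with the longest transcript length and 1.80 with BH3-motif transcripts. Anti-apoptotic over effector message was 1.16, and it was 1.63 with raw counts, with GC adjustment and with protein-coding transcripts, 0.32 with the longest transcript length, -1.57 and -2.39 with the class means, and -0.21 without Mcl1. Leaving out each replicate gave 0.39 to 0.53 for the first and 0.84 to 1.49 for the second. Posterior means, a filter at 1 TPM and the wider family moved neither by more than the spread between replicates. FPKM and totals without globin and mitochondrial genes rescale these genes alike within a library, so they could not change either ratio. Bcl2l1 minus Mcl1 turned from -0.66 to 1.11 with the longest transcript length, as that length is greater for Mcl1 than the one its TPM rests on. The binomial test called 6143 genes and a 1.5-fold rule 1620. At that fold the 6 called members were no longer called, and under the other settings each kept its call. Across the settings tried, 26 of 60 values for member levels and 5 of 39 for transcript shares moved by more than the spread between replicates. These counts include settings whose outcome was fixed: leaving out a replicate could not move a value by this rule. Totals without globin and mitochondrial genes raised all member levels of a library by the same factor. The counts are therefore not rates of robustness. No paired analysis was possible because there is 1 group. Depth limits Bcl2, Bid and Pmaip1 most: their counts were 33 and 33, 221 and 194, and 4 and 0. With 2 libraries, SDs are themselves imprecise, and without an untreated library no level can be tied to estradiol.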
